A study of Mus musculus with 8 samples.

Results

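Integrins are the cell-surface receptors through which fibroblasts hold on to the extracellular matrix, and the transcripts of 10 matrix-binding integrin genes were examined in cardiac fibroblasts of WT mice and of mice with a deletion of the nuclear lamina gene *Lmna*. The comparison asks how these transcripts differ between the genotypes. The 10 genes were the rows of the count files named *Itga1*, *Itga5*, *Itga6*, *Itga8*, *Itga11*, *Itgav*, *Itgb1*, *Itgb3*, *Itgb5* and *Itgbl1*, which is 10 of the 18957 genes listed, and all of them were found. RNA sequencing had been performed on 8 libraries of cells sorted from the ventricles of mice aged 3 to 4 weeks, on a mixed C57BL/6 background. The sort kept cells that carried PDGFRA, a surface receptor of mesenchymal cells, and that lacked markers of blood lineages. The 4 WT libraries came from wild type mice. The 4 *Pdgfra-Cre:LmnaF/F* libraries, which the labels also call Lmna-KO, came from mice homozygous for a floxed exon 2 of *Lmna* and carrying a Cre transgene driven by the *Pdgfra* locus on a bacterial artificial chromosome. The locus is also active in mesenchymal tissue outside the heart and in a subset of cardiac myocytes during development, so the deletion was not limited to fibroblasts of the heart. No library of mice with Cre alone was analysed here, so the Cre transgene and the loss of *Lmna* cannot be told apart. The sources used here do not tie a library to a single mouse, and p-values therefore measure the spread between these libraries.

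An integrin is a pair of an α and a β subunit, and the pair decides which matrix protein is bound. *Itgb1* encodes β1, the common partner, which forms collagen receptors with α1 and α11, laminin receptors with α6, and receptors for the RGD motif of fibronectin and related proteins with α5, α8 and αv. αv also pairs with β3 and β5, which bind vitronectin and take part in releasing latent TGFβ. Inside the cell the β tails bind talin and kindlin, which connect the receptor to actin and, through the cytoskeleton, to the nucleus. *Itgbl1* differs from the others, since it encodes a secreted protein that resembles the repeat region of a β subunit and forms no receptor. In the heart, α8 and α11 are known as integrins of mesenchymal cells, and α11β1 as a receptor for fibrillar collagen.

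The libraries held between 2080555 and 12502949 counts, and WT replicate 2 was the shallowest. *Lmna*, which checks the labels, stood at 331, 274, 483 and 374 counts per 1000000 counts (CPM, scaled by the TMM factors of edgeR) in WT replicates 1 to 4. It stood at 126, 97.4, 130 and 90.4 CPM in *Pdgfra-Cre:LmnaF/F* replicates 1 to 4, a log2 fold change of -1.72 (SE 0.22, adjusted p = 0.00492), so transcript of the targeted gene was lower in every library so labelled but was still counted. The summed level of 8 fibroblast markers ranged from 48869 to 56433 CPM in WT and from 42217 to 58684 CPM in *Pdgfra-Cre:LmnaF/F*. The summed level of 10 cardiomyocyte markers was 5933 CPM in *Pdgfra-Cre:LmnaF/F* replicate 4 and between 315 and 1035 CPM in the other 7 libraries.

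*Itga11*, the α subunit of the fibrillar collagen receptor α11β1, was the single integrin of the 10 that passed the test between genotypes, and it was lower in *Pdgfra-Cre:LmnaF/F* fibroblasts. Its level fell to 22.6% of the WT level. The transcript of its only known partner, *Itgb1*, had a log2 fold change of 0.05, and the other 8 genes did not pass the test. The same test called 53 of the 13036 genes tested, which is 0.407%, and 31 of them were lower, which is 0.238%. In bulk RNA, fewer cells of a type that carries a transcript and less transcript per cell cannot be told apart.

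**Figure D1:**
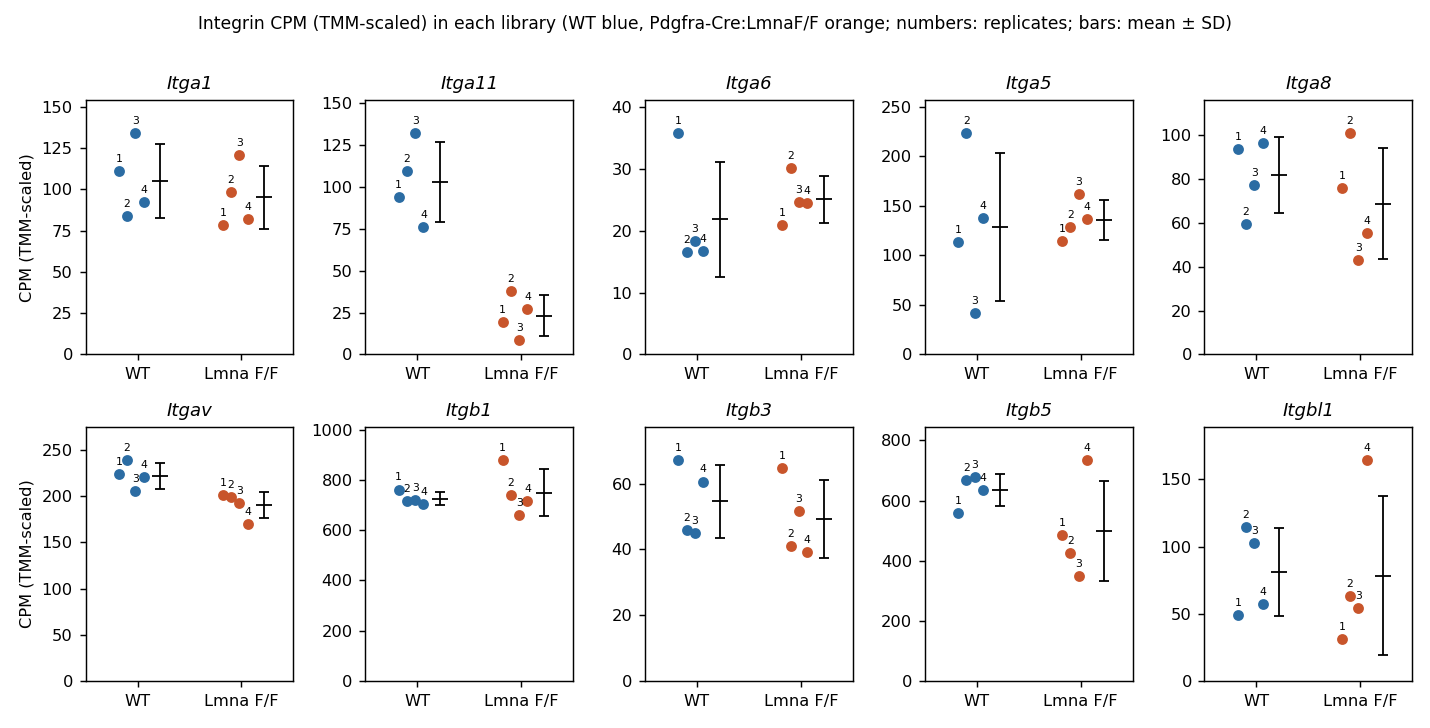
Level of each of the 10 integrin genes in CPM (linear axes from 0), with a point for each library numbered by replicate, WT in blue and *Pdgfra-Cre:LmnaF/F* in orange, and a bar for the mean ± SD of the 4 libraries of a genotype. The *Itga11* points sit between 76.2 and 132 CPM in WT and between 8.52 and 38.0 CPM in *Pdgfra-Cre:LmnaF/F*, whereas the ranges of 8 of the other genes overlap and those of *Itgav* lie side by side.

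The genes of the collagen receptor are shown first with the sequence just before their starts, since *Itga11* differed between genotypes and its partner *Itgb1* and its close relative *Itga1* did not pass the test. The stretches are from RefSeq on GRCm38.p6, run 5′ to 3′ on the strand of the gene and end at the base before the annotated start of the gene. *Itga11* is read from chr9:62677605-62677825 on the plus strand, *Itga1* from chr13:115101965-115102214 on the minus strand and *Itgb1* from chr8:128685404-128685653 on the plus strand. Capitals mark matches to the motifs searched, of which only *Itgb1* had any among these 3 genes.
Itga11: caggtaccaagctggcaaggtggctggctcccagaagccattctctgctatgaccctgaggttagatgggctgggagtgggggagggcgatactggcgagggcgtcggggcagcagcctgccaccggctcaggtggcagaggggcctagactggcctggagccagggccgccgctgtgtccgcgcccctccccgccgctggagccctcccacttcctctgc
Itga1: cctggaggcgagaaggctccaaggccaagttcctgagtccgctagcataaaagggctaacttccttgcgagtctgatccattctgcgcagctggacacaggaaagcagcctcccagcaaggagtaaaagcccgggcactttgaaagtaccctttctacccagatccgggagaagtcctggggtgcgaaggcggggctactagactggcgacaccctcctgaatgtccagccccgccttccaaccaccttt
Itgb1: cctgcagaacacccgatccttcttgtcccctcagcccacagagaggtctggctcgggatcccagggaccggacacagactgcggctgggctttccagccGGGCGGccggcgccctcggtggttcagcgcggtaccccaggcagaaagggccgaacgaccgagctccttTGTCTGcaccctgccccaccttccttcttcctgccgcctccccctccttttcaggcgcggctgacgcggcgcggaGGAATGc
The motifs searched on both strands in the 250 bases before the RefSeq start were AP-1 (TGANTCA), SMAD (CAGACA), Sp1 (GGGCGG), TEAD (GGAATG) and the CArG box of serum response factor, and no matches overlapped. The promoter table held 8 of the 10 genes, and *Itga6* and *Itgb3* were not in it. An Sp1 match was found in 4 of the 8, *Itga5*, *Itgb1*, *Itgb5* and *Itgbl1*, against 32.7% of all 32851 promoters. The *Itgbl1* match lies inside the annotated gene, since only the first 81 bases of its window come before the annotated start. SMAD and TEAD matches were found in *Itgb1* alone, against 17.1% and 12.6% of all promoters. No AP-1 match and no CArG box was found in the 8 windows, against 6.75% and 1.47% of all promoters. The 250 bases before the RefSeq start were 68.4% G or C for *Itga11*, a window that runs past the 221 bases printed and into the annotated gene, and 57.6% for *Itga1*, beside a median of 52.4% over all promoters. A match is a description of the letters, and nothing was measured here at these promoters.

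*Itga11* lies on chromosome 9 from 62677826 to 62783982 of GRCm38, plus strand, and is protein coding. In WT replicates 1 to 4 it stood at 93.7, 110, 132 and 76.2 CPM, from 1003, 218, 825 and 736 counts. In *Pdgfra-Cre:LmnaF/F* replicates 1 to 4 it stood at 19.2, 38.0, 8.52 and 27.2 CPM, from 186, 364, 74 and 326 counts. The groups did not overlap, and the highest *Pdgfra-Cre:LmnaF/F* library, at 38.0 CPM, lay below the lowest WT library, at 76.2 CPM. The means were 103 ± 23.7 and 23.2 ± 12.4 CPM (SD, n = 4 each), a 4.42-fold difference. The log2 fold change was -2.14 (SE 0.36, 95% interval from -2.91 to -1.37), with an adjusted p of 0.0232 by edgeR, and the gene ranked 17 by p among all genes tested.

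The difference in *Itga11* stayed between -2.48 and -1.86 on the log2 scale when single libraries were left out. The adjusted p passed the threshold of 0.05 in 7 of these 8 fits and missed it without WT replicate 2, the shallowest library, where the log2 fold change was -2.12 and the adjusted p 0.0513. WT replicate 3, which had the highest *Itga11*, stood apart on the first principal component of the 500 most variable genes. It was at -50.5 there, and the other libraries were between -15.2 and 27.2. With WT replicates 2 and 3 both left out, a choice made after seeing the data, the log2 fold change was -1.88 and the adjusted p 0.180. Without *Pdgfra-Cre:LmnaF/F* replicate 4, the library with the high cardiomyocyte markers, it was -2.23 and passed the test.

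**Figure D2:**
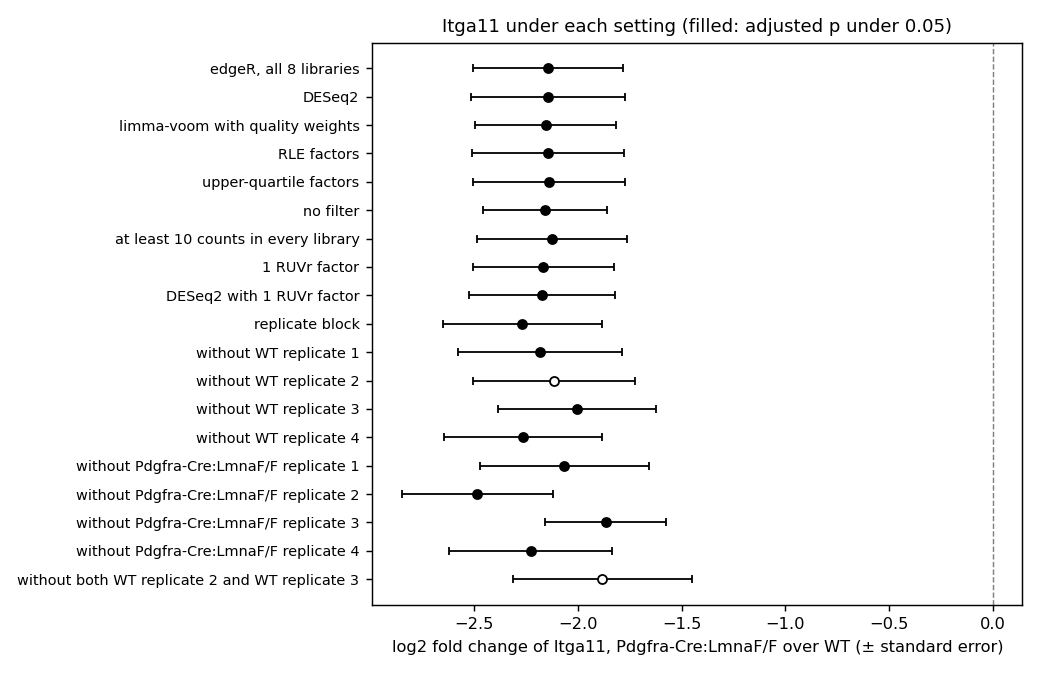
Log2 fold change of *Itga11* (*Pdgfra-Cre:LmnaF/F* over WT, x axis) with its standard error under each test, scaling, filter and left-out library (y axis). Filled points have an adjusted p under 0.05, and the 2 open points are the fits without WT replicate 2 and without both WT replicates 2 and 3, at -2.12 and -1.88.

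The values of tissue dissociation genes in the same libraries are set beside those of *Itga11*. The mean log2 CPM was taken over 23 genes known to be induced when tissue is dissociated, such as immediate early and heat shock genes. It was between 6.62 and 7.05 in WT and between 7.55 and 7.98 in *Pdgfra-Cre:LmnaF/F*, a difference of 0.93. The exact two-sided permutation p was 0.0286, the smallest that 4 against 4 allows, and 0.257 when adjusted over 9 marker lists. A list that stands alone at this smallest p cannot pass 0.05 after that adjustment, so the adjusted value decides nothing here. Of the 23, 20 had a log2 fold change above 0 and 3 below it. An unadjusted p under 0.05 was found for 14, all higher. Over all 13036 genes tested this held for 11.9% in either direction, and for 813 genes that were higher. For 11 of the 23 dissociation genes the groups did not overlap, all higher, against 8.03% of all genes in either direction. The adjusted test of edgeR called 2 of them, both higher, against 0.169% of all genes called higher, namely *Ier3* with a log2 fold change of 1.88 (adjusted p = 0.0221) and *Btg2* with 2.08 (adjusted p = 0.0315). *Pdgfra-Cre:LmnaF/F* replicate 3, which had the lowest *Itga11*, had the highest mean of these genes, 7.98. Within WT, replicate 3 had both the highest *Itga11* and the highest mean of these genes, 7.05. Their part in the *Itga11* difference was not tested.

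*Itga1*, the α1 subunit of the collagen receptor that prefers basement membrane collagen, lies on chromosome 13 from 114953096 to 115101964, minus strand. It stood at 111, 83.5, 134 and 92.3 CPM in WT replicates 1 to 4 and at 78.5, 98.5, 121 and 82.1 CPM in *Pdgfra-Cre:LmnaF/F* replicates 1 to 4. The libraries of the genotypes were interleaved, with a log2 fold change of -0.15 (SE 0.22, 95% interval from -0.61 to 0.31, adjusted p = 0.860). The gene overlaps *Pelo* and *Gm49395* on its own strand, which the files list separately, so reads shared between them could be counted to either or to neither.

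The remaining collagen-binding α subunits, *Itga2* and *Itga10*, are not among the 10 genes and were low in these cells, so the make-up of the family could be set out per library. Levels of different genes were set side by side as CPM per kilobase (kb) of exon. In WT replicates 1 to 4, *Itga11* made up 70.8, 74.4, 68.5 and 68.6% of the summed level of *Itga1*, *Itga2*, *Itga10* and *Itga11*. In *Pdgfra-Cre:LmnaF/F* replicates 1 to 4 it made up 38.5, 52.2, 19.2 and 49.2%. The shares did not overlap between genotypes, and their means were 70.6 ± 2.74% and 39.8 ± 14.9% (SD, n = 4 each). *Itga1* made up 20.2 ± 3.54% of the sum in WT and 49.2 ± 17.5% in *Pdgfra-Cre:LmnaF/F*, while its own level per kb was 5.65 ± 1.19 and 5.11 ± 1.04. The sum of the 4 genes was 28.4 ± 6.70 CPM per kb in WT and 10.8 ± 2.39 CPM per kb in *Pdgfra-Cre:LmnaF/F*. With the length of the longest transcript in place of all exons, the *Itga11* share was 62.6% in WT and 31.1% in *Pdgfra-Cre:LmnaF/F*. These shares follow from the *Itga11* values already given and are a description of them.

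**Figure D3:**
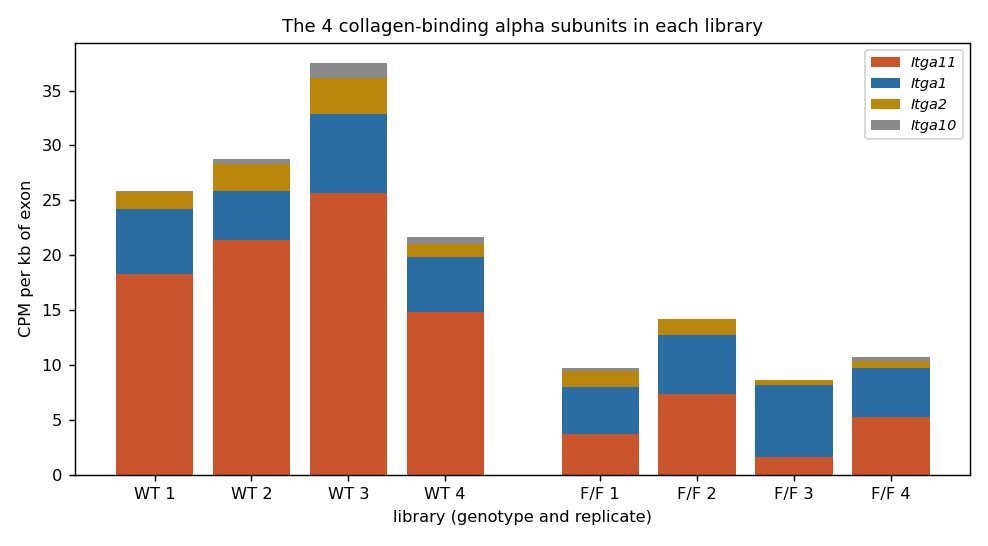
Level per kb of exon (CPM per kb, linear axis from 0) of the collagen-binding α subunits, stacked for each of the 8 libraries, with F/F standing for *Pdgfra-Cre:LmnaF/F*. *Itga11* is the larger part of every WT bar (68.5 to 74.4%) and 19.2 to 52.2% of the *Pdgfra-Cre:LmnaF/F* bars, and the *Itga1* segments of the genotypes overlap in height.

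*Itga6*, the α subunit of laminin receptors, lies on chromosome 2 from 71745616 to 71858416, plus strand. It stood at 35.8, 16.6, 18.4 and 16.7 CPM in WT and at 20.9, 30.2, 24.6 and 24.6 CPM in *Pdgfra-Cre:LmnaF/F*. WT replicate 1 was above every other library and the other 3 WT libraries were below all 4 *Pdgfra-Cre:LmnaF/F* libraries. The log2 fold change was 0.19 (SE 0.33, 95% interval from -0.51 to 0.88, adjusted p = 0.885). Without WT replicate 1 it was 0.54 (adjusted p = 0.668), the highest value among the fits that left out a library.

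Among the RGD-binding α subunits, none passed the test. *Itga5*, which forms the main fibronectin receptor with β1, lies on chromosome 15 from 103344286 to 103366763, minus strand. It stood at 114, 223, 42.0 and 137 CPM in WT and at 114, 128, 162 and 137 CPM in *Pdgfra-Cre:LmnaF/F*. The WT libraries were spread widely, with a coefficient of variation of 57.8% against 14.9% in *Pdgfra-Cre:LmnaF/F*, and the lowest and highest of all 8 values were both WT. Its log2 fold change was 0.08 (SE 0.35, 95% interval from -0.67 to 0.83, adjusted p = 0.961).

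*Itga8*, whose product binds nephronectin and other RGD proteins with β1, lies on chromosome 2 from 12106632 to 12301922, minus strand. It stood at 93.9, 59.4, 77.5 and 96.5 CPM in WT and at 75.8, 101, 43.2 and 55.2 CPM in *Pdgfra-Cre:LmnaF/F*. The values were interleaved, and *Pdgfra-Cre:LmnaF/F* replicates 2 and 3 were the highest and lowest of all 8. This gave a log2 fold change of -0.26 (SE 0.27, 95% interval from -0.83 to 0.31, adjusted p = 0.790).

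*Itgav*, which encodes αv, the partner shared by β1, β3 and β5, lies on chromosome 2 from 83724397 to 83806916, plus strand. It stood at 224, 240, 205 and 221 CPM in WT and at 202, 199, 193 and 170.5 CPM in *Pdgfra-Cre:LmnaF/F*. Every *Pdgfra-Cre:LmnaF/F* library was below every WT library, as it was for *Itga11* and for no other gene of the 10, but the gap between the nearest libraries was narrow. Such a separation, in either direction, was found in 1047 of the genes tested, which is 8.03%. For *Itgav* the log2 fold change was -0.22 (SE 0.17, 95% interval from -0.59 to 0.15), and the adjusted p was 0.697. Within a genotype *Itgav* varied little, with coefficients of variation of 6.31% in WT and 7.41% in *Pdgfra-Cre:LmnaF/F*.

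Of the β subunits, none passed the test. *Itgb1* lies on chromosome 8 from 128685654 to 128733200, plus strand, and stood at 762, 716, 720 and 704 CPM in WT and at 880, 739, 662 and 714 CPM in *Pdgfra-Cre:LmnaF/F*. It had the smallest spread within WT of the 10 genes, with a coefficient of variation of 3.46%, against 12.4% in *Pdgfra-Cre:LmnaF/F*, where both the highest and the lowest library were found. Its log2 fold change was 0.05 (SE 0.18, 95% interval from -0.35 to 0.44, adjusted p = 0.959), an interval that does not reach the change of *Itga11*. The difference between the changes of these genes was not tested.

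*Itgb3*, which forms the vitronectin receptor αvβ3, lies on chromosome 11 from 104608000 to 104670476, plus strand. It stood at 67.3, 45.8, 44.9 and 60.7 CPM in WT and at 64.9, 41.2, 51.8 and 39.2 CPM in *Pdgfra-Cre:LmnaF/F*. The genotypes overlapped over most of their range, with a log2 fold change of -0.16 (SE 0.24, 95% interval from -0.67 to 0.36, adjusted p = 0.872). β3 also pairs with the platelet subunit *Itga2b*. Of 7 platelet markers, *Gp1bb* was not among the genes listed, and 3 passed the filter on low counts. The summed level of all but *Gp1bb*, *Itga2b* included, was low. It ran from 11.8 to 17.6 CPM in WT and from 10.6 to 19.7 CPM in *Pdgfra-Cre:LmnaF/F*.

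*Itgb5*, the β subunit of αvβ5, lies on chromosome 16 from 33829665 to 33949338, plus strand. It stood at 559, 669, 679 and 635 CPM in WT and at 486, 426, 349 and 735 CPM in *Pdgfra-Cre:LmnaF/F*. In 3 of the *Pdgfra-Cre:LmnaF/F* libraries it was below all WT libraries and in replicate 4 it was above them. The log2 fold change was -0.35 (SE 0.23, 95% interval from -0.84 to 0.15, adjusted p = 0.611) over all 8 libraries and -0.60 (adjusted p = 0.225) without *Pdgfra-Cre:LmnaF/F* replicate 4.

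*Itgbl1*, the secreted relative of the β subunits, lies on chromosome 14 from 123659971 to 123975618, plus strand. It stood at 49.2, 115, 103 and 57.2 CPM in WT and at 30.8, 63.0, 54.2 and 164 CPM in *Pdgfra-Cre:LmnaF/F*. *Pdgfra-Cre:LmnaF/F* replicate 4 was the highest of all libraries here too. The log2 fold change was -0.04 (SE 0.42, 95% interval from -0.94 to 0.86, adjusted p = 0.982) and, without that library, -0.70 (adjusted p = 0.441). Besides 5933 CPM of cardiomyocyte markers, replicate 4 had 517 CPM of the 10 macrophage markers, against 56.0 to 198 CPM in the other 7 libraries, and 624 CPM of the 10 mural cell markers, against 238 to 464 CPM. No marker of these lists was at 0 in every library. The part of these cells in the *Itgb5* and *Itgbl1* values was not tested.

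**Figure D4:**
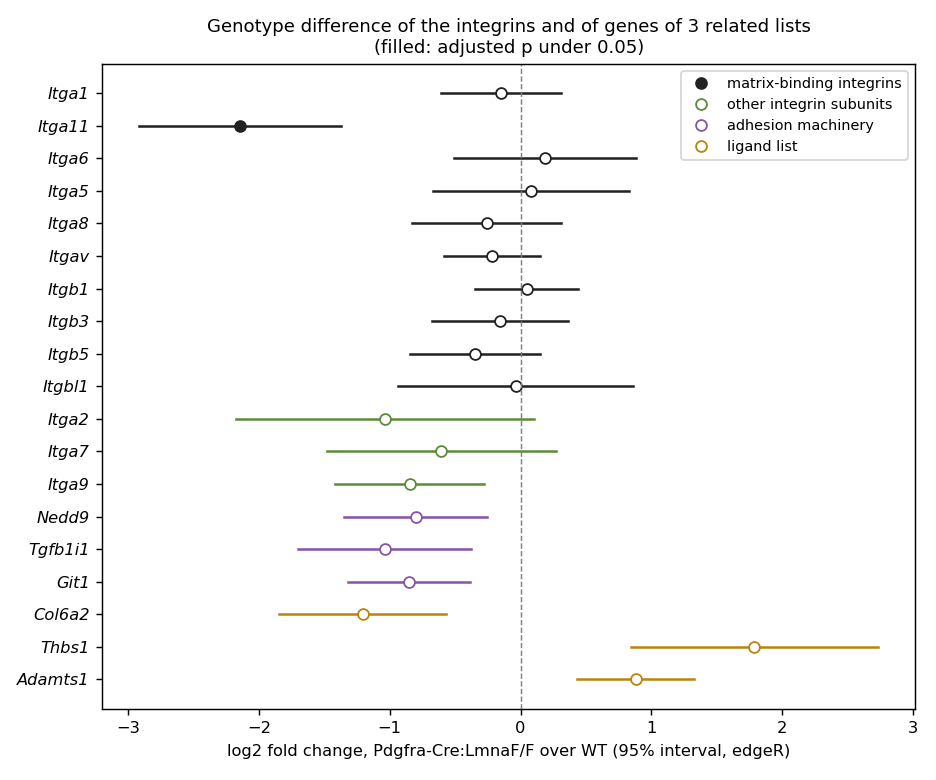
Log2 fold change between genotypes (*Pdgfra-Cre:LmnaF/F* over WT, x axis) with its 95% interval for the 10 integrins in black and for named genes of the other integrin subunits, the adhesion machinery and the ligand list. Only *Itga11*, at -2.14, is filled, which marks an adjusted p under 0.05, and the intervals of the other 9 integrins all include 0.

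Counted together, all 10 genes passed the filter on low counts, 1 was called and was lower (0.407% of all genes tested were called and 0.238% were called lower), 7 had a log2 fold change below 0 and 3 above it. Their median log2 fold change was -0.15, beside 0.02 over all genes tested, of which 48.2% were below 0. The groups did not overlap for 2 of the 10, against 8.03% of all genes tested.

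Per kb of exon the 10 genes spanned a wide range of levels, and the order of the levels was led by *Itgb5* and *Itgb1*, whereas the β subunit *Itgb3* ranked 8 in WT and 7 in *Pdgfra-Cre:LmnaF/F*. In WT, *Itgb5* stood at 179 ± 15.3 and *Itgb1* at 178 ± 6.15 CPM per kb (SD, n = 4), and their libraries overlapped. *Itga5* followed at 26.1 ± 15.1, *Itgav* at 20.7 ± 1.30, *Itga11* at 20.05 ± 4.61 and *Itgbl1* at 19.1 ± 7.71, and among these 4 each overlapped with the next. *Itga8* stood at 11.1 ± 2.33, *Itgb3* at 9.26 ± 1.88, *Itga1* at 5.65 ± 1.19 and *Itga6* at 2.42 ± 1.03. Steps between neighbours without overlap of libraries in WT were those from *Itgb1* to *Itga5*, from *Itgb3* to *Itga1* and from *Itga1* to *Itga6*.

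In *Pdgfra-Cre:LmnaF/F* the order of the levels was *Itgb1* at 183 ± 22.8, *Itgb5* at 140 ± 47.1, *Itga5* at 27.4 ± 4.08, *Itgbl1* at 18.5 ± 14.0 and *Itgav* at 17.8 ± 1.32 CPM per kb. *Itga8* at 9.33 ± 3.43, *Itgb3* at 8.35 ± 1.99, *Itga1* at 5.11 ± 1.04, *Itga11* at 4.53 ± 2.43 and *Itga6* at 2.78 ± 0.427 CPM per kb came after them. *Itga11* thus went from rank 5 to rank 9 of the 10, and its libraries then overlapped with those of *Itga1* and *Itga6* on either side. The steps without overlap were those from *Itgb5* to *Itga5*, from *Itgav* to *Itga8* and from *Itgb3* to *Itga1*. With the longest transcript as length, 6 of the 10 genes kept their rank in WT and 4 in *Pdgfra-Cre:LmnaF/F*, so the order of close neighbours rests on the length used. This holds for the step from *Itgb3* to *Itga1* too. With longest transcripts *Itga1* stood at 9.58 and *Itgb3* at 9.45 CPM per kb in WT, and at 8.66 and 8.52 in *Pdgfra-Cre:LmnaF/F*. The summed level of the 3 RGD-binding α subunits was 57.9 ± 15.4 and 54.5 ± 3.43 CPM per kb in WT and *Pdgfra-Cre:LmnaF/F*, and that of the 3 β subunits 366 ± 9.06 and 332 ± 53.9 CPM per kb.

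**Figure D5:**
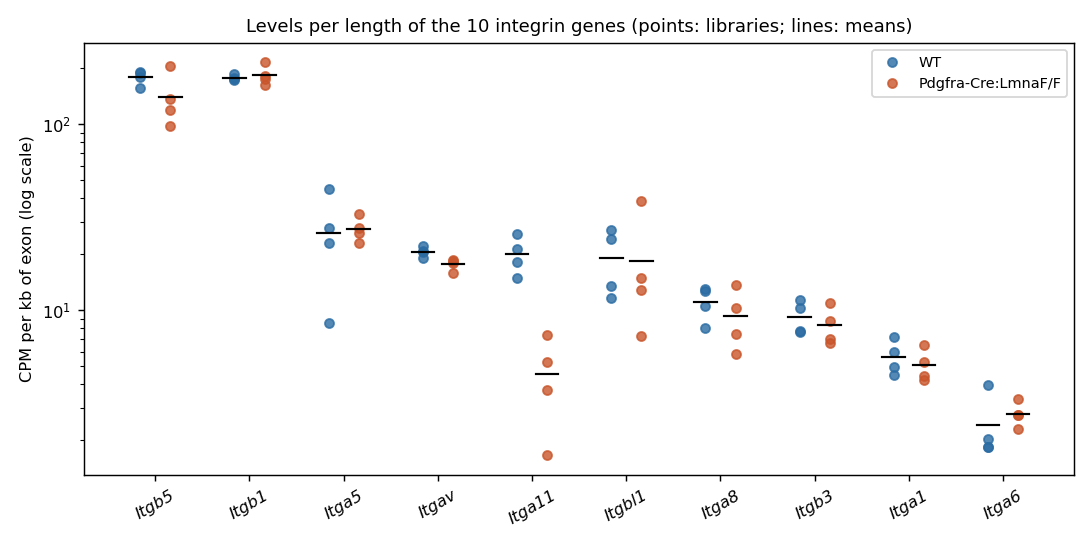
Level of each integrin gene per kb of exon (CPM per kb, log axis), ordered by the WT mean, with points for the libraries and lines for the means of WT (blue) and *Pdgfra-Cre:LmnaF/F* (orange). *Itgb5* and *Itgb1* lie far above the rest in both genotypes, and *Itga11* stands apart by its shift from 20.05 to 4.53 CPM per kb.

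The genes whose log2 CPM followed *Itga11* most closely over the 8 libraries were *Ckb*, a creatine kinase (Pearson r 0.973), *Stmn4*, a stathmin (0.961), and *Col14a1*, a fibril-associated collagen (0.958). Within genotypes, as deviations from the genotype means, the r values were 0.899, 0.957 and 0.864. None of these genes passed the test, with adjusted p values of 0.124, 0.357 and 0.194, and *Stmn4* was low, with 2 libraries under 1 CPM. The genes closest to *Itgb5*, the integrin with the next lowest p, were *Xlr3b* (0.973), *Fry* (0.968) and *Znrf1* (0.967), with 0.978, 0.980 and 0.956 within genotypes. *Xlr3b* was low, at 1.04 to 4.53 CPM over the 8 libraries. All 3, like *Itgb5*, were higher in *Pdgfra-Cre:LmnaF/F* replicate 4 than in the other libraries of that genotype. These values are the highest of all genes tested and describe the same 8 libraries, which share their depth and sort.

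Of the 17 other integrin subunits, which serve leukocytes, epithelium, muscle and platelets as well as mesenchyme, 13 passed the filter and none was called. By edgeR 6 had a log2 fold change above 0 and 7 below it, with a median of -0.0059, no gene passed by DESeq2 or limma-voom either, and 1 of the 13 had an unadjusted p under 0.05, against 1550 of all genes tested, which is 11.9%. That gene was *Itga9*, an α subunit that binds tenascin C and pairs with β1. It stood at 106, 192, 141 and 151 CPM in WT and at 125, 70.5, 79.7 and 51.5 CPM in *Pdgfra-Cre:LmnaF/F*, with a log2 fold change of -0.85 (SE 0.27, adjusted p = 0.206), and the groups overlapped through *Pdgfra-Cre:LmnaF/F* replicate 1. *Itga2*, a further collagen-binding subunit, had -1.04 (adjusted p = 0.478) and *Itga7*, a laminin-binding subunit of muscle, -0.60 (adjusted p = 0.617).

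The proteins that join integrins to actin and signal from them, such as talins, kindlins, focal adhesion kinase, paxillin and vinculin, were listed as 44 genes, of which 42 passed the filter. None was called, 35 had a log2 fold change below 0 and 7 above it, with a median of -0.25. An unadjusted p under 0.05 was found for 7 of the 42, all lower. Over all 13036 genes tested this held for 11.9% in either direction, and for 737 genes that were lower. The lowest p values were those of *Git1*, a scaffold of focal adhesions, with -0.85 (SE 0.22, adjusted p = 0.124), *Tgfb1i1*, the paxillin relative Hic-5, with -1.04 (adjusted p = 0.192), and *Nedd9*, an adaptor of the Cas family, with -0.80 (adjusted p = 0.208). Calls in this list differed between tools, with none by limma-voom, 1 by DESeq2 and 3 by DESeq2 with a factor of unwanted variation. Over all genes given an adjusted p, limma-voom called 0.967%, DESeq2 2.58% and DESeq2 with that factor 3.71%. The part of the dissociation genes, whose values are given above, in this list and in the ligand list was not tested.

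Of 35 genes for integrin ligands and related matrix proteins, 32 passed the filter and none was called. Log2 fold changes were below 0 for 21 and above 0 for 11, with a median of -0.30, and 14 had an unadjusted p under 0.05, of which 10 were lower and 4 higher, against 11.9% of all genes tested. The lowest p values were those of *Adamts1*, a secreted matrix protease, with 0.88 (adjusted p = 0.0987), *Col6a2*, a chain of collagen VI, with -1.21 (adjusted p = 0.114), and *Thbs1*, an RGD-bearing matricellular protein, with 1.79 (adjusted p = 0.114). *Col1a1*, a chain of the type I collagen that α11β1 binds and named here outside the rule for its link to *Itga11*, had a log2 fold change of -0.51 (SE 0.31, adjusted p = 0.560). DESeq2 and limma-voom each called 4 genes of this list, of which *Adamts1*, *Col6a2* and *Col6a3* were called by both, against the same 2.58% and 0.967% of all genes.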

How the data were processed

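The authors prepared strand-specific, ribosomal RNA depleted libraries from sorted cells with a RIN above 8, sequenced them as 150 bp pairs, used HISAT2 for alignment (genome build mm10) and featureCounts for assigning reads to genes. The deposited values are whole-number counts per gene symbol, not scaled for depth, with totals of 2080555 to 12502949 per library and a lowest gene total of 4, and 24 symbols are written as dates. These depths cover counting error only. Groups and replicate numbers are those of the labels. In R 4.3.3, edgeR 4.0.16 (filterByExpr, TMM, quasi-likelihood test, genotype as the only term) tested 13036 genes, with Benjamini-Hochberg adjustment over all of them and a threshold of 0.05. Marker sums were compared with exact permutation tests over 70 assignments, and over fewer where a library was left out. Lengths were unions of exons of GENCODE M21. Promoter sequences and motif shares used the RefSeq table. Alternatives were DESeq2 1.42.0, limma 3.58.1 voom with quality weights, other scalings and filters, 1 RUVr factor (the study's methods name RUV), a replicate block and left-out libraries. The integrins and all lists were chosen with earlier results of these data known. Named genes were all 10 integrins, *Lmna*, list genes past the threshold (or the 3 with the lowest p), and the 3 genes most correlated with each of the 2 integrins of lowest p. A further gene of the adhesion machinery list is not reported here and enters none of the counts of that list. The fits were tested on simulated counts.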

Additional observations from a re-analysis of the deposited data

Results flagged for a closer look

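In 3 of 58 groups of 4 libraries examined, the highest library stood far from the others by Dixon's criterion, which chance meets in about 1 of 20 groups. *Itga6* was at 35.8 CPM in WT replicate 1 and between 16.6 and 18.4 CPM in the other WT libraries. The macrophage markers summed to 517 CPM in *Pdgfra-Cre:LmnaF/F* replicate 4 and to between 56.2 and 133 CPM in the other 3. The cardiomyocyte markers summed to 5933 CPM in the same replicate and to between 315 and 930 CPM in the other 3.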

How the results depend on the processing

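*Itga11* was called under all 9 other tests, scalings, filters and factors tried, with log2 fold changes from -2.27 to -2.13. Leaving out single libraries gave -2.48 to -1.86, and 0 to 1 integrins called, with none called without WT replicate 2. Without both WT replicates 2 and 3 it gave -1.88 and 0 integrins called. The other 9 integrins gave 162 values under alternatives, none past the threshold (lowest adjusted p 0.225), of which 11 turned sign. These were *Itga5* (-0.053 with limma-voom, -0.22 to 0.46 with libraries left out), *Itga6* (-0.078 without WT replicates 2 and 3), *Itgb1* (-0.046 to 0.10 with libraries left out) and *Itgbl1* (-0.70 to 0.22, and 0.54 without WT replicates 2 and 3). The cause was not tested.

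All-gene counts of 53 became 303 with DESeq2, 126 with limma-voom, 274 without a filter, 83 with 1 RUVr factor, 455 with DESeq2 and 1 RUVr factor, 13 (without WT replicate 4) to 76 (without *Pdgfra-Cre:LmnaF/F* replicate 4) with libraries left out and 18 without WT replicates 2 and 3. Leaving out WT replicate 1 or 2 gave 24 genes, and *Pdgfra-Cre:LmnaF/F* replicate 2 or 3 gave 26 or 17. Adhesion machinery counts of 0 became 1, 1 and 3 with DESeq2, no filter and DESeq2 with 1 RUVr factor, and stayed at 0 with limma-voom and with libraries left out. Ligand counts of 0 became 4, 4, 7 and 6 with DESeq2, limma-voom, no filter and DESeq2 with 1 RUVr factor, and 0 to 1 with libraries left out (*Col6a2* without WT replicate 3, *Thbs1* without *Pdgfra-Cre:LmnaF/F* replicate 4).

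The sources used here do not say whether replicate numbers pair the libraries. Deviations of same-numbered libraries from the genotype means correlated at -0.027, -0.030, -0.0041 and 0.040. No shared deviation was thus visible, which cannot show that the libraries were unpaired. With the replicate block *Itga11* had -2.27 (adjusted p = 0.0342) and 1 ligand gene, *Cyr61*, was called.

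With longest transcripts as lengths, 6 genes kept their rank in WT and 4 in *Pdgfra-Cre:LmnaF/F*. Log2 ratios of marker sums that turned sign with libraries left out ran from -0.47 to 0.063 for mural cells, -0.44 to 0.88 for macrophages, -0.24 to 1.61 for cardiomyocytes and -0.10 to 0.24 for platelets. The shallowest library, WT replicate 2, held 2080555 counts.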

Other observations

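The other integrin subunits named here were picked after their values were seen. *Itgb2*, the β2 subunit of leukocytes, stood at 2.90, 3.02, 3.20 and 0.828 CPM in WT and at 3.93, 0, 0.345 and 13.7 CPM in *Pdgfra-Cre:LmnaF/F*. *Itgax*, its partner on macrophages and dendritic cells, stood at 4.11, 3.52, 3.52 and 0.725 CPM in WT and at 2.79, 0, 7.598 and 10.7 CPM in *Pdgfra-Cre:LmnaF/F*. Both were highest in *Pdgfra-Cre:LmnaF/F* replicate 4, and neither passed the test. *Itgb8*, a partner of αv that activates latent TGFβ, stood at 78.6, 60.9, 44.4 and 80.8 CPM in WT and at 75.5, 61.5, 84.7 and 42.6 CPM in *Pdgfra-Cre:LmnaF/F*, with a log2 fold change of -0.0059 (SE 0.26).

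The summed levels of 3 more marker lists gave exact permutation p values above 0.05 over all 8 libraries, with adjusted values over the 9 lists of 0.257, 0.257 and 0.45 for endothelial, epicardial and Schwann cell markers. Endothelial markers summed to 598 to 837 CPM in WT and to 481 to 642 CPM in *Pdgfra-Cre:LmnaF/F* (exact permutation p = 0.0571). Epicardial markers summed to 13.4 to 46.3 CPM and to 6.67 to 18.3 CPM (exact permutation p = 0.0857). Schwann cell markers summed to 26.6 to 51.3 CPM and to 34.9 to 63.8 CPM (exact permutation p = 0.2). With single libraries left out, 1 of 8 fits for endothelial markers and 1 of 8 for epicardial markers had an unadjusted exact permutation p under 0.05. These were the fit without WT replicate 2 for endothelial markers (log2 ratio -0.58) and without WT replicate 3 for epicardial markers (log2 ratio -1.32). Both gave an exact permutation p of 0.0286, the smallest that such a fit allows. With the mean log2 CPM of the list in place of the sum, the differences were -0.27 for endothelial markers (exact permutation p = 0.371) and -1.43 for epicardial markers (exact permutation p = 0.0857).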
